A study of Mus musculus with 6 samples.

Results

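Constitutive internal exons are the exons that every listed transcript of a gene includes between its first and last exon. They were taken here as exonic parts, the stretches into which the deposited annotation divides each gene. A part was kept if it belonged to a single gene with at least 2 transcripts and was listed in every transcript of that gene. It also had parts of the gene on both sides and adjoined no other part. Flanking parts within each single transcript were not required. Of 368092 parts, 343079 lay in single genes, 278332 of these in genes with at least 2 transcripts, 46553 of those in every transcript, 44146 also had parts on both sides, and 28745 also adjoined no other part. These 28745 exons lay in 5377 of 36889 gene identifiers, and 3829 genes held at least 2 of them.

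Podocytes, the kidney epithelial cells that cover the filtration capillaries, were labelled CD2BP2 knockout (KO, 3 libraries) or wildtype (WT, 3 libraries), all on a C57BL/6 background, and their polyadenylated RNA was sequenced. Per the labels, the targeted Cd2bp2 allele carries its downstream loxP site after exon 3, and the Cre line that acted in podocytes is not given in the sources used here. The treatment text describes cultured bone marrow macrophages from poly(I:C)-treated mice with MxCre, whereas every sample is labelled as podocytes. The labels do not say whether the 3 libraries of a group came from separate animals, so each p-value reflects the spread between libraries alone, which may be technical.

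In splicing, the spliceosome removes each intron and joins the exons on either side of it. Its U5 small nuclear ribonucleoprotein holds the end of the upstream exon against the start of the downstream exon through a conserved loop of its RNA. CD2BP2, which carries a GYF domain, binds the free U5 particle and is absent from the active spliceosome. A constitutive internal exon depends on correct recognition at both of its ends in each transcript where it lies between other exons. Its share among such exons of the gene can show that it is left out more or less often than the others. A change that affects all such exons of a gene alike leaves these shares as they were. Reads from RNA with a retained intron still count for the exon, so these shares do not measure core splicing as a whole.

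The sequences below belong to the exons on which the results turn: exon 3 of Cd2bp2, next to the loxP site, the 3 neighbouring exons of Map4k3 of which the middle exon differed, exons of Usp15, Gpr137b and Myo1d that other tests called, and a Gpr137b exon with a small p that no other test called. They are spliced transcript sequences of the GENCODE M21 annotation (GRCm38), read on the minus strand in every case, and the capitals mark the last 3 bases of the exon, the exon side of the 5′ splice site. The Cd2bp2 exon lies at chr7:127195023-127195158, the Map4k3 exons at chr17:80630415-80630473, chr17:80629286-80629348 and chr17:80624056-80624114, the Usp15 exon at chr10:123127678-123127869, the Gpr137b exons at chr13:13374359-13374408 and chr13:13365046-13365195, and the Myo1d exon at chr11:80692881-80693089.
Cd2bp2 exon 3: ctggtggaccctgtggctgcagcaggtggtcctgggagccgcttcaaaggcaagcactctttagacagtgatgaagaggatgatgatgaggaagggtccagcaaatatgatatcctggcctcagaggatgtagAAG
Map4k3 exon 14: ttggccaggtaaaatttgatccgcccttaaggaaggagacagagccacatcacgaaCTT
Map4k3 exon 15: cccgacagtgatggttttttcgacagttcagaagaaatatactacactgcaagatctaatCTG
Map4k3 exon 16: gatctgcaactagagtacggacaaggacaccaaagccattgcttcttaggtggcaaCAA
Usp15 exon 13: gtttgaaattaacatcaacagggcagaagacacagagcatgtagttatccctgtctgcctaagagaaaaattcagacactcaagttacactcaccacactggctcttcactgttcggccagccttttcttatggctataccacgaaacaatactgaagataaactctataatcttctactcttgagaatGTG
Gpr137b exon 2: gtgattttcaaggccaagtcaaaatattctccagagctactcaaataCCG
Gpr137b exon 4: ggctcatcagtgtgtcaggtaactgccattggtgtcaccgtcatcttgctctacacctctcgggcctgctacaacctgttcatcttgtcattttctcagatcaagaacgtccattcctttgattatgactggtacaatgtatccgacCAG
Myo1d exon 2: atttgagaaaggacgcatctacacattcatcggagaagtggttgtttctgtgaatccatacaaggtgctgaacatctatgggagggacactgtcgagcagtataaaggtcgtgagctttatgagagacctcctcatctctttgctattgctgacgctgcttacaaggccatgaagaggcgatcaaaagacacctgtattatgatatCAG
The exons shared some features that the choice did not use and varied widely in others. The median length was 123 bases, with 63 and 213 bases as the 10th and 90th percentiles and 3 and 4441 bases as the extremes. The gap to the next part had a median of 1406 bases upstream and 1299 bases downstream, and beside 22 exons it was under 30 bases, too short for an intron. In the later M21 annotation, 28350 exons (98.6%) could be matched, and of these 92.2% were coding over their whole length and 80.0% ended in G, the base that most often precedes an intron. The length was a multiple of 3, which keeps the reading frame when an exon is left out, in 40.01% of the exons. M21 also lists transcripts that leave out 1320 of them, so constitutive here means constitutive in the annotation that the authors used.

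Total counts over all parts ranged from 214948912 to 255554573 in KO libraries and from 186022084 to 231312370 in WT libraries. Constitutive internal exons held 8.13%, 8.31% and 8.16% of them in KO and 8.07%, 7.99% and 8.00% in WT, so their overall share was slightly higher in each KO library. The median exon had 181 to 207 counts in KO and 138 to 183 in WT, and 3318 exons had 0 counts in every library. Markers of podocytes were abundant in all libraries, with a summed level of 19796 to 21644 CPM (the gene's count scaled to library size) in KO and 22241 to 25012 in WT over 9 of 10 markers. Summed macrophage markers (9 of 10 found) reached 182 to 196 CPM in KO and 95.9 to 124 in WT. Summed markers of the tubule beyond its proximal stretch reached 518, 1383 and 260 CPM in KO1, KO2 and KO3 and 176 to 327 in WT. The high value was thus that of KO2, and KO3 lay within the WT range. Proximal tubule markers summed to 880 to 1310 CPM in KO and 535 to 1040 in WT, endothelial markers to 5683 to 6050 in KO and 6241 to 6578 in WT, and mesangial markers to 2119 to 2585 in KO and 2258 to 2490 in WT. No marker that was found was at 0 in all libraries.

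The targeted transcript was lower but present in the KO libraries. These libraries also held markers of other cells, such as endothelial (5683 to 6050 CPM) and mesangial markers (2119 to 2585 CPM). Which cells the remaining transcript came from was not tested. Cd2bp2 stood at 48.4, 47.3 and 51.0 CPM in KO against 61.0, 61.8 and 60.8 CPM in WT, a log2 difference of -0.32. The lowest WT library lay above the highest KO library. In bulk RNA such as this, fewer cells of a type and less RNA per cell cannot be told apart.

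The main question for these exons was whether their usage differed between KO and WT podocytes. Usage is the count of an exon as a percentage of the counts of all constitutive internal exons of its gene. It hardly differed. Of the 15473 exons with a mean count of at least 100 in genes with several of them, 93.8% changed by under 1.1-fold between the mean KO and the mean WT usage and 99.3% by under 1.2-fold. The log2 ratio of KO over WT usage had a median of 0.0001, with -0.08 and 0.08 as the 10th and 90th percentiles. Within a group, the median coefficient of variation of usage was 3.83% over KO libraries and 4.24% over WT libraries.

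Libraries of different genotype were no farther apart in usage than WT replicates were. The median pair stood at 0.0655 between genotypes, 0.0606 between KO libraries and 0.0710 between WT libraries. WT libraries had lower counts (138 to 183 for the median exon against 181 to 207 in KO), and the effect of depth on these distances was not tested. The median absolute log2 difference between a KO and a WT library ranged from 0.0597 to 0.0690 over the 9 pairs. Between 2 KO libraries it was 0.0605 to 0.0651, and between 2 WT libraries 0.0651 to 0.0713. The plot of library pairs shows the 3 ranges overlapping, with pairs of WT libraries reaching the highest values.

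**Figure D1:**
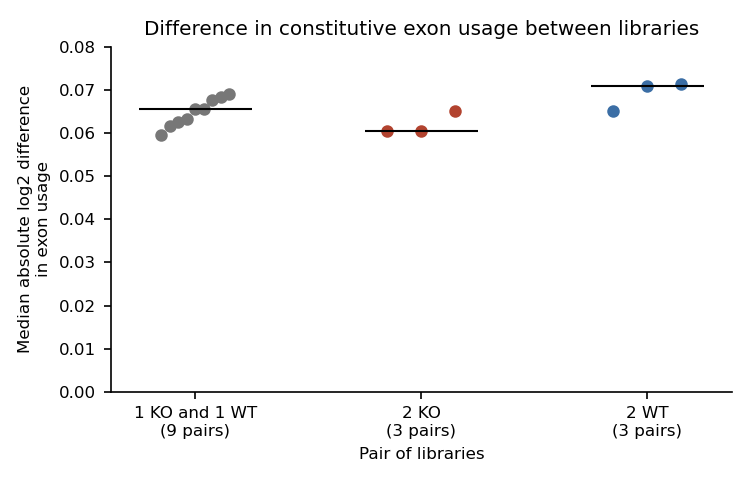
Median absolute log2 difference in usage over 15473 constitutive internal exons (y axis) for each pair of libraries (points), grouped by genotype of the pair (x axis), with the median pair as a line. The 9 pairs of a KO and a WT library lie between 0.0597 and 0.0690, and the 3 WT pairs between 0.0651 and 0.0713.

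No constitutive internal exon passed the test across all parts. In edgeR's diffSpliceDGE, which compares the log2 change of a part with that of the rest of its gene, 0 of 20587 tested exons had a Benjamini-Hochberg adjusted p under 0.05, where 148 of 236061 parts of the whole table passed (0.0627%). The 8158 other exons did not pass the filter on low counts. At an unadjusted p under 0.05 there were 39 exons (0.189%), against 1.16% of all parts. Of the 39, 30 were higher and 9 lower in KO, whereas 0.595% of all parts were higher and 0.568% lower at this level. The split depended on the setting, with 79 higher and 82 lower without a filter on low counts, 8 and 6 with these exons alone, and 458 and 412 in the fit with an offset described next. The fit's log2 difference had a median of -0.0017 over the exons, with -0.13 and 0.13 as the 10th and 90th percentiles, and over all parts it had a median of -0.0020, with -0.19 and 0.17.

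Other tests called few of these exons. A quasi-likelihood fit in edgeR with the gene's sum over such exons as offset called 4 of 19519 (0.0205%), 3 higher and 1 lower in KO, with 870 (4.46%) at an unadjusted p under 0.05. DESeq2 with the same sum as normalization factor called 10 (0.0512%), 5 in each direction, and limma-voom's diffSplice on all parts called 4 of 20587 exons, 1 higher and 3 lower in KO, where 0.173% of all parts passed. The number of calls with the offset changed when a library was left out, which also leaves fewer libraries to test. The 4 calls became 0 without KO1, KO2, WT2 or WT3, 2 without WT1 and 5 without KO3. The log2 differences of the 4 exons kept their sign in these fits. They ranged from -0.45 to -0.38 for part 11 of Usp15 and from 0.48 to 0.60 for part 22 of Map4k3. In Myo1d they ranged from 0.20 to 0.25 for part 23 and from 0.19 to 0.26 for part 21.

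Groups that did not overlap were no more frequent than elsewhere in the table. KO and WT usage did not overlap in 1922 of 19591 tested exons (9.81%), and the share of the gene's count did not overlap in 11.2% of all tested parts. Adding a change of at least 1.2-fold and a mean count of at least 100 left 69 exons in 47 genes (0.446%), against 1.68% of all parts, with 39 higher and 30 lower in KO. A change of at least 1.5-fold was found in 3 exons (0.0194%), against 0.261% of all parts, and of at least 2-fold in 0 exons, against 96 parts (0.0586%). The 3 exons were part 25 of Abcc4, part 32 of Fhod3 and part 7 of Ifi30, a lysosomal thiol reductase. In Ifi30 the groups overlapped, with 172, 186 and 168 counts in KO against 128, 423 and 173 in WT, so that a single WT library set the difference, and the part lies 1 base from the next part.

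Usage did not separate the groups by exon length. For each library, the median over exons of the log2 ratio of usage to mean WT usage was taken in 6 length classes, and every median lay within 0.011 of 0. Short exons under 50 bases, which leave little room for enhancer sequences within the exon, stood at 0.0070, 0.0027 and -0.0038 in KO against -0.0023, 0.0106 and -0.0072 in WT over 683 exons. Exons of 300 bases and over stood at -0.0054, -0.0103 and -0.0076 in KO against -0.0067, 0.0035 and 0.0006 in WT over 614 exons. The groups overlapped in both classes. The difference between exons under 100 bases and exons of at least 200 bases was 0.0057, 0.0105 and 0.0022 in KO against 0.0089, -0.0011 and -0.0072 in WT, so the groups overlapped here as well.

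By intron length, differences were small. Some classes with long gaps were lower in every KO library than in every WT library. By the shorter of the gaps to the flanking parts, exons with a gap under 500 bases minus exons with at least 2000 bases gave 0.0058, 0.0069 and 0.0036 in KO against 0.0049, -0.0023 and -0.0012 in WT, and the lowest KO value lay under the highest WT value. Exons whose shorter gap was at least 2000 and under 10000 bases had groups that did not overlap, at -0.0038, -0.0062 and -0.0042 in KO against -0.0016, 0.0017 and -0.0011 in WT. The same held for an upstream gap in that range, at -0.0020, -0.0024 and -0.0038 in KO against -0.0001, 0.0008 and -0.0010 in WT. For a downstream gap of at least 10000 bases the medians were -0.0070, -0.0071 and -0.0068 in KO against -0.0060, 0.0027 and -0.0024 in WT, again without overlap. These classes share exons, and no test was run on their medians. In exons with at least 10000 bases on both sides the groups overlapped. These exons, 466 in all, stood at -0.0070, -0.0071 and -0.0091 in KO against -0.0094, 0.0016 and 0.0033 in WT. In all, 39 classes were formed by length, gap, position, reading frame, last base, junction, GC content and later annotation. Their KO and WT medians differed by at most 0.0071 on the log2 scale. Groups did not overlap in 4 of the 39 classes, 3 of them the long gaps above, all lower in KO. Usage did not overlap in 9.81% of the individual exons tested, which is no baseline for medians over classes that share exons. Whether gap length plays a part was not tested.

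**Figure D2:**
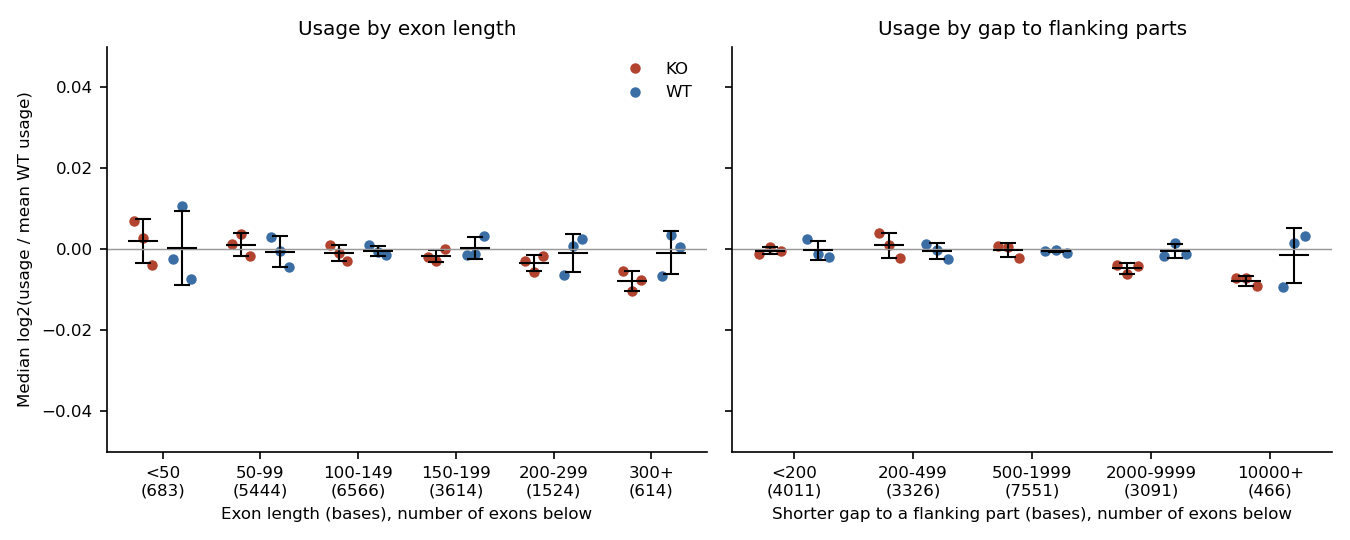
Median log2 ratio of usage to mean WT usage (y axis) for each library (points, KO left of WT) by exon length and by the shorter gap to a flanking part (x axes, in bases, with the number of exons below each class). Bars give the mean and SD over 3 libraries. Every point lies within 0.011 of 0.

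The last base of an exon, next to the 5′ splice site, did not separate the groups either. Over 14649 exons ending in G, medians were 0.0006, -0.0007 and -0.0026 in KO against -0.0001, -0.0001 and -0.0015 in WT. The 500 exons ending in C, the least frequent base there, stood at -0.0081, -0.0038 and -0.0030 in KO against -0.0047, 0.0041 and 0.0030 in WT, and the groups overlapped. Exons in multiples of 3 and the others differed between the genotypes by -0.0003 and -0.0005. The 1024 exons that some M21 transcript leaves out stood at -0.0035, -0.0029 and -0.0022 in KO against 0.0001, -0.0018 and 0.0012 in WT. They are 1 of the 4 classes whose groups did not overlap.

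The evenness of coverage along genes was also alike. The coefficient of variation of counts per base among a gene's constitutive internal exons had a median over 1311 genes of 0.274, 0.277 and 0.272 in KO against 0.279, 0.275 and 0.268 in WT. Of 19439 exons with a mean count of at least 20, 99.7% to 99.8% were covered over their full length in KO libraries and 99.2% to 99.6% in WT libraries. Counts per base relative to the gene's mean were 1.80 in exons under 50 bases and 0.79 in exons of at least 300 bases. This is a difference of levels between exons, taken over all 6 libraries.

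Exons at the extremes of length had like usage in both groups. The 8-base exon of Ablim3, an actin-binding LIM protein gene, had 1203, 1313 and 1069 counts in KO against 440, 410 and 529 in WT, and its usage averaged 3.49% in KO and 3.43% in WT, so the higher count was shared by the gene's other constitutive internal exons. The 8-base exon of Pitpnb, a phosphatidylinositol transfer protein gene, averaged 6.01% in KO and 5.78% in WT, and the 11-base exon of Tmem237, a gene of the ciliary transition zone, 4.11% in KO and 3.95% in WT. The groups overlapped in all 3. At the other end, the 4441-base exon of the kinase anchor gene Akap11 averaged 73.4% in KO and 73.9% in WT, the 3448-base exon of Setbp1 76.4% in KO and 75.6% in WT, and the 3353-base exon of the zinc finger gene Zfp521 69.8% in KO and 70.8% in WT. The groups did not overlap in Setbp1 and overlapped in the other two. The genes with the most such exons were the dynein gene Dnah8 (91, of which 9 were tested), the ubiquitin ligase gene Herc2 (90, all tested) and Sspo (90, of which 23 were tested), and none of their exons reached an unadjusted p under 0.05 in diffSpliceDGE. In Herc2 the log2 ratio of usage stayed between -0.12 and 0.15 over its 90 exons.

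Cd2bp2 itself has 4 constitutive internal exons, and exon 3, whose sequence is given above, had the lower usage in KO. Exon 3 lies next to the loxP site of the targeted allele. By its share, loss of the exon from that allele and omission in splicing cannot be told apart, and neither was tested. Exon 3 (part 6, chromosome 7, 134338537 to 134338672, NCBIM37) had 745, 666 and 726 counts in KO against 920, 843 and 1010 in WT. Its usage was 15.7%, 17.1% and 16.1% in KO against 22.2%, 20.2% and 19.4% in WT, and the groups did not overlap. The mean usage was 1.26-fold lower in KO (16.3 ± 0.72% in KO and 20.6 ± 1.41% in WT, SD, n = 3 each). In diffSpliceDGE this gave an unadjusted p of 0.0142 and an adjusted p of 1.0, and the adjusted p was 0.0786 in edgeR with the offset, 0.0031 in DESeq2 and 0.0369 in limma-voom.

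Exons 4, 5 and 6 of Cd2bp2, beyond the loxP site, made up the rest of the sum and had slightly higher mean shares in KO. Exon 4 averaged 22.6% in KO and 21.8% in WT, exon 5 44.2% in KO and 41.8% in WT, and exon 6 17.01% in KO and 15.9% in WT. The groups did not overlap at exons 4 and 5 and overlapped at exon 6. The unadjusted p of these 3 exons in diffSpliceDGE was 0.684, 0.524 and 0.448.

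**Figure D3:**
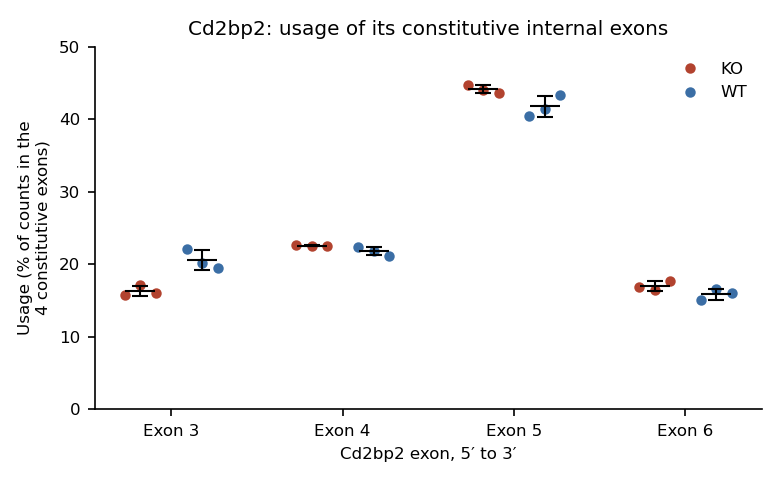
Usage of the 4 constitutive internal exons of Cd2bp2, in percent of their summed count (y axis), in each library (points, KO left of WT) with mean and SD, for exons 3 to 6 in 5′ to 3′ order (x axis). Exon 3 averages 16.3% in KO and 20.6% in WT, with no overlap.

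The exon with the smallest p was exon 15 of Map4k3, a kinase gene of the STE20 family that in human and fly cells links amino acid supply to TOR signalling. Exon 15 (part 22, 63 bases, chromosome 17, 81028626 to 81028688, NCBIM37) had 880, 740 and 700 counts in KO against 447, 538 and 621 in WT. Its usage was 2.37%, 2.29% and 2.01% in KO against 1.46%, 1.59% and 1.56% in WT, a 1.45-fold higher mean in KO with no overlap of the groups. It did not pass diffSpliceDGE (unadjusted p 9.5e-05, adjusted p 0.117), but passed edgeR with the offset (adjusted p 0.0139), DESeq2 (2.1e-07) and limma-voom (8.8e-07). With the offset it passed without KO3 and in none of the other 5 cases of a left-out library, where the adjusted p was 0.0544 to 0.126.

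The exons beside it did not share the difference. Exon 14, of 59 bases, averaged 3.42% in KO and 3.53% in WT, and exon 16, also of 59 bases, 3.46% in KO and 3.50% in WT, with overlapping groups in both. Exon 15 is thus slightly longer than its neighbours, yet held less than the share of either neighbour in all 6 libraries. In M21, 1 of the 3 transcripts that span exon 15 leaves it out, and none leaves out exon 14 or 16. Of the 69 exons with non-overlapping usage and a change of at least 1.2-fold, 6 are left out by some M21 transcript, and beside Map4k3 they belong to Arhgef28, Arhgap33, Ripk3, Fam49b and Tln2. That is 8.82% of the 68 that were matched, against 6.04% of the 15352 matched exons of this depth.

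Exon 13 of Usp15, a deubiquitinase gene, had a lower share in KO in every test run. This exon (part 11, 192 bases, chromosome 10, 122564734 to 122564925, NCBIM37) had 838, 675 and 753 counts in KO against 797, 788 and 1058 in WT, while the gene's constitutive internal exons summed to 16140, 13067 and 14487 counts in KO against 12125, 11432 and 14572 in WT. Its usage was 5.195%, 5.169% and 5.201% in KO against 6.58%, 6.90% and 7.26% in WT. The KO libraries were nearly equal and lay below every WT library, 1.33-fold lower on average. The unadjusted p was 0.0017 and the adjusted p 0.916 in diffSpliceDGE, and the adjusted p was 0.0115 in edgeR with the offset, 1.3e-06 in DESeq2 and 2.5e-05 in limma-voom. With the offset it passed without KO3 or WT1 (adjusted p 0.0388 and 0.0092) and not without KO1, KO2, WT2 or WT3 (0.0544 to 0.123).

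The neighbouring exon 12 of Usp15 (part 12, 95 bases) also had a lower share in KO. It averaged 3.70% in KO and 4.42% in WT without overlap, and did not pass with the offset (adjusted p 0.490). Together both exons held 8.83%, 8.96% and 8.85% of the gene's usage in KO against 10.8%, 11.1% and 12.0% in WT. The 16 other exons of the gene had log2 ratios between -0.10 and 0.10, and their groups overlapped.

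**Figure D4:**
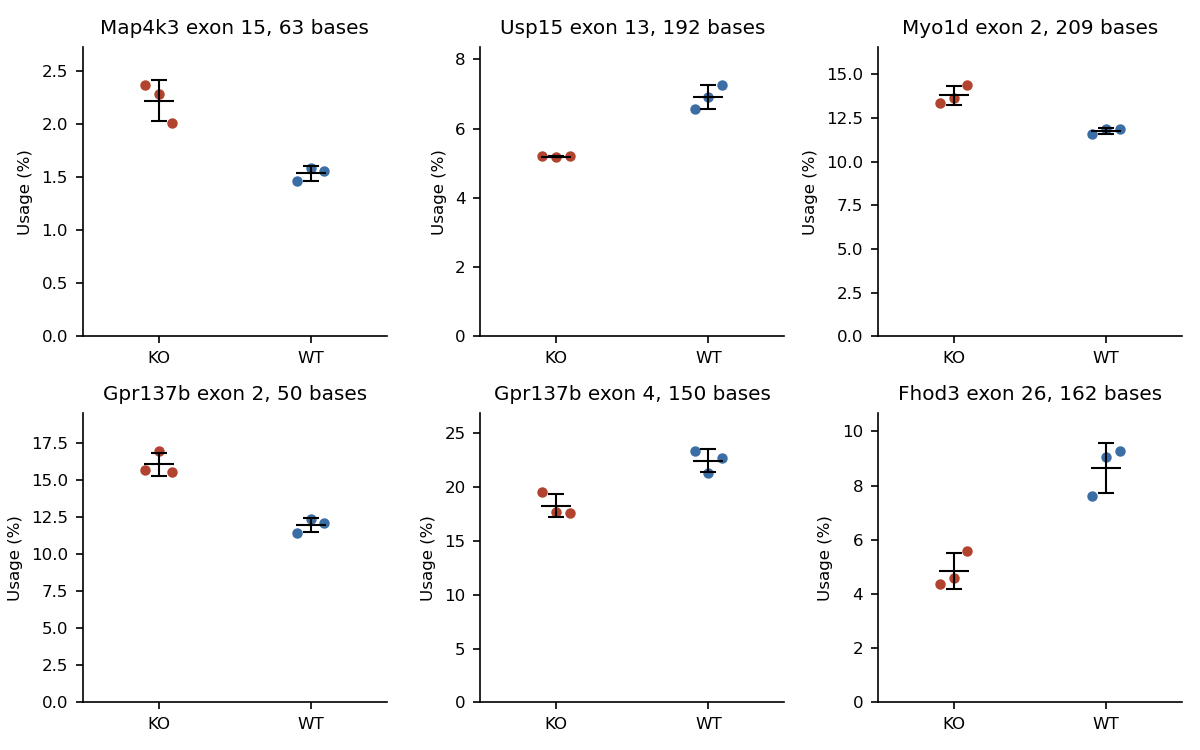
Usage of 6 exons, in percent of the summed count of the gene's constitutive internal exons (y axes, from 0), in each library (points, KO left of WT) with mean and SD over 3 libraries. The groups do not overlap in any panel, with KO above WT for Map4k3 exon 15, Myo1d exon 2 and Gpr137b exon 2.

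In Myo1d, an unconventional class I myosin gene, runs of neighbouring exons differed in opposite directions. This gene, exon 2 of Gpr137b and the Fhod3 exon described next were chosen after their values were seen, because tests other than diffSpliceDGE called them. Exon 2 (part 23, 209 bases, chromosome 11, 80506383 to 80506591, NCBIM37) had 5270, 4946 and 5350 counts in KO against 3881, 3785 and 4217 in WT, and a usage of 13.3%, 13.6% and 14.4% in KO against 11.6%, 11.8% and 11.9% in WT. Its adjusted p was 0.0139 in edgeR with the offset, and 1.0 in diffSpliceDGE with an unadjusted p of 0.0169. With the offset it passed without KO3 (0.0388) and not without any other library (0.0524 to 0.126). Exon 4 (part 21, 166 bases) passed with the offset as well (0.0383), and without a library it passed when WT1 was left out (0.0245) and in no other case. Exons 2 to 4, the 5′ end of this set, together held 35.7%, 36.4% and 38.7% of usage in KO against 32.03%, 31.4% and 31.3% in WT.

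Myo1d has 22 exons, and its constitutive internal exons are exons 2 to 9, of which the later ones were lower in share. Exon 8 (part 17, 204 bases) averaged 18.1% in KO and 20.2% in WT, and exon 9 (part 16, 146 bases) 16.1% in KO and 17.7% in WT, both without overlap. DESeq2 called these 2 exons and exons 2 to 4 at adjusted p from 2.6e-07 to 0.0151. Against the whole gene, the diffSpliceDGE log2 difference was 0.30 to 0.31 for exons 2 to 4, and -0.07 and -0.06 for exons 8 and 9 (unadjusted p 0.575 and 0.639). Shares of these 8 exons have a fixed sum, so a higher share of exons 2 to 4 goes with a lower share of the others.

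Abcc4, a gene for an efflux transporter of cyclic nucleotides and drugs, had a run of exons with a higher share in KO that was longer. It held 12 of the 69 exons, more than any other gene, and 10 of the 12 were higher in KO. Exon 7 (part 25, 126 bases, chromosome 14, 119028840 to 119028965, NCBIM37) had 194, 173 and 144 counts in KO against 93, 95 and 87 in WT, and its usage averaged 2.21 ± 0.044% in KO and 1.44 ± 0.16% in WT (SD, n = 3 each). Exon 15 (part 17, 210 bases) had 320, 275 and 268 counts in KO against 184, 142 and 192 in WT. In diffSpliceDGE the unadjusted p was 0.0092 and 0.0099 and the adjusted p 1.0 for both, and neither passed with the offset (adjusted p 0.0786 and 0.326).

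The 13 exons of Abcc4 from part 17 to the 5′ end held 27.6%, 27.5% and 28.7% of usage in KO against 21.5%, 20.1% and 20.3% in WT. All 13 had a higher mean share in KO, and 11 of the 15 exons 3′ of them a lower one. This run was chosen after the profile was seen and was not tested. The profiles by exon order show these runs beside the single exon of Map4k3 and the neighbouring pair of Usp15.

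**Figure D5:**
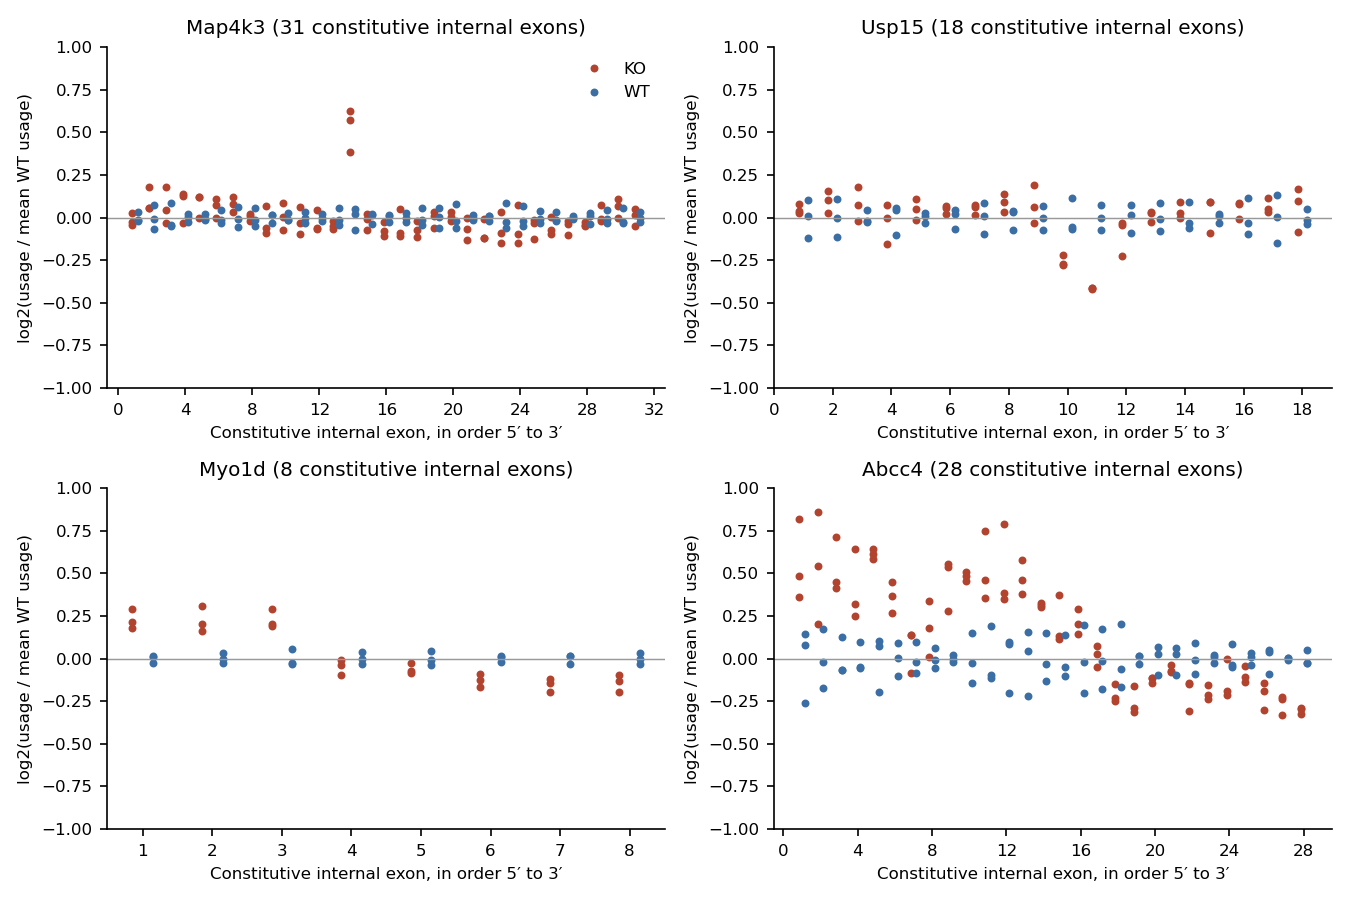
Log2 ratio of usage to mean WT usage (y axes) for every constitutive internal exon of Map4k3, Usp15, Myo1d and Abcc4 in 5′ to 3′ order (x axes), in each library (points, KO left of WT). In Map4k3 a single exon stands out, in Usp15 a pair, and in Myo1d and Abcc4 a run at the left of the panel is higher in KO. The Myo1d panel covers exons 2 to 9 of 22.

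Gpr137b, a gene for a lysosomal membrane protein, had exons that differed in both directions. Exon 2 (part 8, 50 bases) had a usage of 15.7%, 16.98% and 15.6% in KO against 11.4%, 12.4% and 12.1% in WT, and passed DESeq2 (adjusted p 0.0424) but neither edgeR with the offset (0.0648) nor diffSpliceDGE (1.0). Exon 4 (part 6, 150 bases) had 409, 350 and 406 counts in KO against 563, 478 and 770 in WT, and a usage of 19.5%, 17.7% and 17.6% in KO against 23.4%, 21.3% and 22.7% in WT (unadjusted p 0.0068 and adjusted p 1.0 in diffSpliceDGE). The 2 sets of libraries did not overlap at either exon.

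Fhod3, a formin gene known for its role in heart muscle sarcomeres, held the exon with the largest change among those with a mean count of at least 100. Exon 26 (part 32, 162 bases, chromosome 18, 25289034 to 25289195, NCBIM37) had 122, 162 and 150 counts in KO against 93, 62 and 95 in WT, and a usage of 4.36%, 4.60% and 5.60% in KO against 7.61%, 9.06% and 9.29% in WT, 1.78-fold lower on average in KO. The gene's exons summed to 2811, 3532 and 2687 counts in KO against 1228, 689 and 1028 in WT. The count of exon 26 was thus higher in KO while its share was lower. It passed DESeq2 (adjusted p 0.0079) but neither edgeR with the offset (0.0726) nor limma-voom (0.709). In diffSpliceDGE the unadjusted p was 0.0147, and the exon did not pass after adjustment.

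The other exons among the 10 with the smallest p had low counts or a gene with a single such exon. Exon 3 of Milr1, an immunoglobulin-like receptor gene of mast cells, had 32, 25 and 50 counts in KO against 7, 10 and 8 in WT, and its usage averaged 59.2% in KO and 43.6% in WT. Exon 2 of Gm14124 had 11, 11 and 16 counts in KO against 12, 6 and 4 in WT, with an adjusted p of 0.286 in diffSpliceDGE and 0.0300 in limma-voom. Its usage among constitutive internal exons was higher in KO (74.6% in KO and 65.1% in WT), whereas the fit against the rest of the gene gave a lower value, -2.04. Degs2 and 2200002D01Rik have 1 such exon each, so that their usage is 100% by definition in both groups.

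Further exons with a change of at least 1.2-fold and no overlap came from genes of varied function, again as a description after their values were seen. Of the 69, 37 were the only such exon of their gene, 10 genes held several, and 13 reached an unadjusted p under 0.05. Cep290, a gene of the ciliary transition zone, held 4, all higher in KO, of which part 53 had 170, 162 and 118 counts in KO against 94, 77 and 91 in WT. Itgal, the alpha chain gene of a leukocyte integrin, held 2 neighbouring exons with a higher share in KO, at 7.32% in KO and 4.99% in WT for part 33. Slc5a10, a sodium-dependent sugar transporter gene of the tubule, held 2 neighbouring exons with a lower share in KO. The macrophage and tubule marker sums given above also differed between the libraries, and their part in these exons was not tested.

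Single exons of this kind included part 25 of Rictor, a subunit gene of an mTOR complex, with 265, 186 and 244 counts in KO against 270, 249 and 260 in WT and a usage of 2.02% in KO and 2.50% in WT. Part 5 of Pikfyve, a phosphoinositide kinase gene of the endolysosome, averaged 2.14% in KO and 2.67% in WT, and part 7 of the laminin-binding integrin gene Itga7 4.09% in KO and 5.18% in WT. Part 17 of Tln2, a talin gene that couples integrins to actin, averaged 6.48% in KO and 4.67% in WT. None of these 4 exons passed diffSpliceDGE, with unadjusted p between 0.0985 and 0.131 and an adjusted p of 1.0 each.

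Genes of the filtration barrier held many of these exons, and none of them passed. In the list of slit diaphragm and podocyte genes, 0 of 108 tested exons in 14 genes passed diffSpliceDGE and 0 had an unadjusted p under 0.05. Their log2 ratio of usage had a median of -0.0031 and ranged from -0.22 to 0.22, and 6 of 104 exons (5.77%) had groups that did not overlap, against 9.81% of all such exons tested. The smallest p belonged to exon 11 of Trpc6, a cation channel gene in which human mutations cause glomerular disease, with 135, 123 and 163 counts in KO against 114, 89 and 116 in WT and a usage of 7.55% in KO and 6.50% in WT (unadjusted p 0.408). Plce1, a phospholipase gene also mutated in human nephrotic syndrome, followed with exon 30 at 5.13% in KO and 4.82% in WT.

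Basement membrane and adhesion genes held 83 tested exons in 7 genes, of which 0 passed, 0 had an unadjusted p under 0.05 and 7 of 83 (8.43%) had groups that did not overlap. Exon 45 of Tln2, the part 17 already described, had the smallest p there. Exon 45 of Col4a5, a type IV collagen gene, had 2077, 1619 and 1706 counts in KO against 2084, 1733 and 2316 in WT and a usage of 22.05% in KO and 22.9% in WT. Actin cytoskeleton genes held 106 tested exons in 12 genes, again with 0 past the test and 0 at an unadjusted p under 0.05, and their log2 ratios lay between -0.11 and 0.08. Exon 13 of the scaffold gene Iqgap1 averaged 2.79% in KO and 3.01% in WT and led that list with an unadjusted p of 0.387.

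In genes of the splicing machinery, no exon passed diffSpliceDGE. Among U5 and tri-snRNP proteins, the particles that CD2BP2 belongs to or helps to form, 0 of 35 tested exons in 9 genes passed, and exon 3 of Cd2bp2 was the 1 exon with an unadjusted p under 0.05 and the 1 exon called by DESeq2. The next was exon 4 of Ppih, a cyclophilin gene of the tri-snRNP, at 19.7% in KO and 20.6% in WT (unadjusted p 0.393). Groups did not overlap in 7 of 33 exons (21.2%), against 9.81% of all such exons. These included exons 3, 4 and 5 of Cd2bp2, the targeted gene, whose shares depend on each other. The others were exon 4 of Ppih and exons 4, 5 and 8 of Prpf4b, a splicing kinase gene. The log2 ratios of the Prpf4b exons were -0.05, -0.09 and 0.07. SR protein, hnRNP and splicing kinase genes, which include many with regulated exons, held 64 tested exons in 15 genes, with 0 past the test, 0 at an unadjusted p under 0.05 and log2 ratios between -0.09 and 0.08. Exon 6 of Hnrnpa1 averaged 13.8% in KO and 14.5% in WT, and exon 7 of Tra2a 19.2% in KO and 18.2% in WT.

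VEGF and angiopoietin signalling genes held 23 tested exons in 5 genes, with 0 past the test, 0 at an unadjusted p under 0.05 and no exon with groups that did not overlap. Exon 5 of Kdr, the main VEGF receptor gene of endothelial cells, had 11865, 10885 and 10276 counts in KO against 9698, 8942 and 10911 in WT and averaged 12.9% in KO and 13.1% in WT. Among giant genes, 97 tested exons in 2 genes gave 0 past the test and 0 at an unadjusted p under 0.05. Exon 58 of Herc2 averaged 0.917% in KO and 0.826% in WT, and exon 22 of Vps13b, a lipid transfer protein gene, 15.6% in KO and 14.9% in WT.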

How the data were processed

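Polyadenylated RNA was measured in 3 KO and 3 WT libraries. The authors deposited 1 table per library with, per exonic part, a raw count of reads, its length, how many bases were covered and the fraction that this makes. Per the file headers, parts come from Ensembl 67 on NCBIM37. Per the submitters' processing notes, reads were aligned with TopHat 1.4.1 and the build was GRCh37, a human build that goes against the file headers. Neither the counting tool nor its use of strand is given in the sources, so counts were treated as unstranded and antisense reads cannot be told apart. A read that spans several parts may enter more than once. Of the exons described, 255 overlap a part of another gene.

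The counts were tested with diffSpliceDGE in edgeR 4.0.16 (R 4.3.3) on the parts that filterByExpr retained (genes with 2 or more of them), with TMM normalization, no covariates and Benjamini-Hochberg adjustment over all parts (threshold 0.05), and the constitutive internal exons were read off. Usage had 0.5 added to counts. Class medians used exons with a mean count of at least 20. Levels in CPM are sums over a gene's parts. Replicate libraries differed by more than sampling noise (chi-square per part 5.20 to 14.9), so none was a duplicate. Alternatives used DESeq2 1.42.0, limma 3.58.1, other filters and normalization, and left-out libraries. The scripts were tested on simulated counts. With 1.5-fold changes in 67 of these exons, diffSpliceDGE recovered 13.4% of them, edgeR with the offset 74.6% and DESeq2 67.2%. At 2-fold these shares were 67.2%, 88.1% and 86.6%. Over all sizes of change, the offset fit called 452 exons, of which 251 were unchanged exons in a gene with a changed one. In DESeq2 these were 205 of 379.

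Exons were matched to GENCODE M21 (GRCm38) by transcript identifier and exon lengths, for names, exon numbers, sequences and later transcripts only. Symbols were found for 31300 of 35981 single gene identifiers. The rule named the 10 exons with the smallest p, since none passed, all of Cd2bp2, the 2 with the smallest p of each of 7 gene lists in 2 genes, and the 3 shortest and longest with at least 100 counts in every library. The members, gene lists and this rule were chosen with earlier results of these data known.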

Additional observations from a re-analysis of the deposited data

How the results depend on the processing

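The count of 0 exons past diffSpliceDGE was also 0 with RLE normalization, with no filter, with at least 10 counts in 3 libraries, with constitutive internal exons alone, with exons that overlap no other gene, and without each library in turn (0 to 0). It was 4 with the gene sum as offset, 10 in DESeq2 and 4 in limma-voom, and the cause of these differences was not tested. The 4 calls with the offset became 0 to 5 without a library, an alternative chosen after seeing the data. Taking the replicate number as a block also gave 0 calls, with 56 exons at an unadjusted p under 0.05 against 39 without it. The labels do not say that the numbers pair libraries, so they were not taken as pairs. Deviations of same-numbered KO and WT libraries had correlations of 0.148, -0.115 and 0.225, and those of differently numbered ones -0.333 to 0.191. These values cannot decide whether the libraries were paired. The difference between KO and WT in the contrast by length, 0.0059, ranged from 0.0010 to 0.0108 without a library and was 0.0209 with counts summed over exons in place of the median. By gap, 0.0050 ranged from 0.0022 to 0.0079, and was 0.0013 against the nearest exons and 0.0135 with summed counts. The exons with the smallest p, those of Cd2bp2 and of the gene lists, and those called by other tests kept their direction under every alternative run. Among the shortest and longest exons, none of which passed, Setbp1 was at -0.037 and reversed to 0.0143 with these exons alone, 0.0149 with the offset and 0.0148 in DESeq2. Ablim3 at 0.017 ranged from -0.030 to 0.066 without a library and reversed without KO2, WT2 or WT3, and Tmem237 at 0.053 ranged from -0.0099 to 0.099 and reversed without KO2. The cause was not tested. The log2 level of Cd2bp2 ranged from -0.36 to -0.31. Exons in genes with 1 such exon have no usage to test, and since diffSpliceDGE put 1.16% of all parts at an unadjusted p under 0.05, its count of 0 does not show that changes of the size seen here are absent.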
